A study of Mus musculus with 6 samples.

Results

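In hematopoietic stem cells of Ppp2ca-deficient mice, 852 stretches of chromatin far inside protein-coding genes carried a peak of H3K27 acetylation in all 3 knockout libraries and in none of the 3 wild-type libraries. They were chosen by that pattern. The peaks of the 6 deposited lists were joined into merged regions wherever they shared 1 bp or more on chromosomes 1 to 19 and X. A merged region was kept if it overlapped a RefSeq protein-coding gene body and lay over 5 kb from both ends of every protein-coding gene; such regions are called deep below. The 852 members were 1.87% of 45636 deep regions, among 104143 merged regions in all. Of the merged regions at any place, 2823 (2.71%) had the knockout-only pattern. The reverse pattern, a peak in all 3 wild-type lists and no knockout list, was found in 9 deep regions (0.0197%) and in 31 merged regions at any place (0.0298%). Because the peak lists of both genotypes chose the members, their presence in the knockout and absence in the wild type is a description and was not tested.

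The samples were bone marrow cells labelled as primary hematopoietic stem cells from 3 Ppp2ca-deficient (KO) mice and 3 wild-type (WT) mice, and the labels give no drug treatment, sex or age. The mark was mapped by CUT&RUN, in which an antibody brings a micrococcal nuclease to a chromatin mark and the cut fragments are sequenced. The sources used here do not say how Ppp2ca was inactivated or in which cells. Each library was taken as 1 mouse, since the series text counts 3 mice per genotype, although no label carries an animal number.

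Ppp2ca encodes a catalytic subunit, the alpha form, of protein phosphatase 2A (PP2A), which removes phosphate from serine and threonine residues of many signalling proteins. Acetylation of histone H3 at lysine 27 marks active promoters and active enhancers, and it is placed by the CBP and p300 acetyltransferases and removed by histone deacetylases. Inside genes the mark is found at intronic enhancers and at alternative promoters. In blood cells many enhancers of lineage genes lie in introns.

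The knockout lists were longer than the wild-type lists, with 34016 to 50453 peaks in KO libraries against 21917 to 29945 peaks in WT libraries. Solving each peak's fold and p-value for the number of fragments at its summit gave a median of 6, 6 and 9 fragments in KO replicates 1 to 3, against 5 in each WT library. The genome background that the peak caller used was 0.738, 0.465 and 0.827 fragments in the KO libraries and 0.499, 0.584 and 0.498 in the WT libraries, so these ranges overlapped. All 6 lists had a peak at 1 end of Ppp2ca itself, and a mark at the gene's end does not check its deletion. At gene ends, 5 of 31 stem cell transcription factor genes were marked in all 6 libraries, among them Runx1, Tal1 and Lyl1. Of 32 stem cell and cytokine receptor genes, 6 were marked in all 6 libraries, among them Cxcr4, Itga2b and Cd44. No gene-end peak in any library was found for 11 of the 31 transcription factors and 12 of the 32 receptors. Among these were Gata2, Erg, Mecom, Hlf, Cd34, Flt3 and Slamf1, which are defining genes of stem and progenitor cells. Only the outer ends of each gene were searched, so a peak at an internal start did not count. Genes of other cells were marked in all 6 libraries for 6 of 24 myeloid genes, 4 of 20 lymphoid genes, 2 of 20 erythroid genes, 3 of 20 megakaryocyte genes, 2 of 23 T and NK cell genes, 1 of 22 endothelial and stromal genes and 0 of 14 mast cell genes. In KO libraries 12 of the 20 erythroid genes were marked in all 3, against 3 in WT libraries. Stem cell transcription factors (12 against 5 of 31) and receptors (14 against 6 of 32) differed in the same direction, as did genes outside the blood lists. The counts were 9 against 6 for myeloid, 5 against 4 for megakaryocyte and 4 against 2 for T and NK cell genes. Lymphoid genes (4 against 4) and mast cell genes (0 against 0) did not differ. Over all genes with deep sequence, 4.81% had a gene-end peak in 3 KO and no WT list, and 0.0146% the reverse. The part of other cell types in the results below was not tested, and a mark in more cells cannot be told apart from more mark per cell.

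Of the 852 members, 38 (4.46%) touched a RefSeq promoter window, defined as 250 bp before to 50 bp after an annotated start, and in 33 of them that start belonged to the host gene itself. By the rule these starts lie well inside the gene, away from both of its outer ends. The share was 15.3% in the 1016 deep regions with a peak in all 6 lists, 8.68% in deep regions with 3 KO peaks and 1 or 2 WT peaks, and 1.48% over all deep regions. Wider regions touch a window more readily, and the median widths of these sets were 753.5, 1380.5, 1006 and 219 bp. Members were ordered by their rank in the knockout list where they were weakest, and of the best 15, 4 touched such a start, in Zfp458, Cd46, Wiz and Adh5. Those 4 windows are shown with the 3 windows that hold a cyclic AMP response element, in Zfp595, Slc25a25 and Lekr1. The sequences are from the RefSeq promoter table of GRCm38.p6, 5′ to 3′ on the gene's strand. Capitals mark the cyclic AMP response element TGACGTCA, the GC box GGGCGG or CCGCCC, and the ETS site CCGGAAG or CTTCCGG. In Adh5 the first run of capitals is a GC box that overlaps an ETS site.
Zfp458, chr13:67268945-67269244, minus strand: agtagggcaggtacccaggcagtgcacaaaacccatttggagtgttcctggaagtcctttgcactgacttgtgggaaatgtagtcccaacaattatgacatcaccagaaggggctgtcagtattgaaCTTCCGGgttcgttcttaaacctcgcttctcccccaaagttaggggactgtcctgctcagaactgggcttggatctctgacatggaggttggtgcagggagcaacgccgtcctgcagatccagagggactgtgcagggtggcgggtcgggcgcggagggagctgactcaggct
Cd46, chr1:195092199-195092498, minus strand: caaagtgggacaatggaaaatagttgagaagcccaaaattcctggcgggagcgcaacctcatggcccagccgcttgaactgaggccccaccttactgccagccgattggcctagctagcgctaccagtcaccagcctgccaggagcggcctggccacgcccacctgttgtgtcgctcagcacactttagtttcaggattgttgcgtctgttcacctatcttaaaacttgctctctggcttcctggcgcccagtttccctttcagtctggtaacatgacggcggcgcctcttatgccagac
Wiz, chr17:32364414-32364713, minus strand: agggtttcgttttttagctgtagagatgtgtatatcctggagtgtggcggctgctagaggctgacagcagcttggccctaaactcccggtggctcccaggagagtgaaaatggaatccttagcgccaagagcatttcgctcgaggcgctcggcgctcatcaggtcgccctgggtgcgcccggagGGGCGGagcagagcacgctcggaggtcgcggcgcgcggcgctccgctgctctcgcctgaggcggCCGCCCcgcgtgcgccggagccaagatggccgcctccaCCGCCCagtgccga
Adh5, chr3:138442843-138443142, plus strand: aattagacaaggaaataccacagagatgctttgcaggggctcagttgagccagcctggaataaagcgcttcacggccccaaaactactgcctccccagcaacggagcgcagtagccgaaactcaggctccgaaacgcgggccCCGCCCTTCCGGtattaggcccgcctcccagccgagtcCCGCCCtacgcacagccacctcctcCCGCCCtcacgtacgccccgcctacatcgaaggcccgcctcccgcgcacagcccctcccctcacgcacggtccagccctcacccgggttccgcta
Zfp595, chr13:67332511-67332810, minus strand: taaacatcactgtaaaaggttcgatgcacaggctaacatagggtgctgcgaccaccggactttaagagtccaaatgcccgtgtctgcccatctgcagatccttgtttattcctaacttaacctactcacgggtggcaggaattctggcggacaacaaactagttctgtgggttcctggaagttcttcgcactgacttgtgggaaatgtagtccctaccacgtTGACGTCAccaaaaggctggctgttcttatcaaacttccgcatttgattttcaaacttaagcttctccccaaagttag
Slc25a25, chr2:32424017-32424316, minus strand: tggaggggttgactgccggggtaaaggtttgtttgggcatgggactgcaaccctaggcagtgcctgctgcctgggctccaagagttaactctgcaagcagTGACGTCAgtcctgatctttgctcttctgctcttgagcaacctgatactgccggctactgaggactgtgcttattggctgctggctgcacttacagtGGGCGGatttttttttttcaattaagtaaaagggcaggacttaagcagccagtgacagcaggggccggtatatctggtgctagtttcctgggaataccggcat
Lekr1, chr3:65665978-65666277, plus strand: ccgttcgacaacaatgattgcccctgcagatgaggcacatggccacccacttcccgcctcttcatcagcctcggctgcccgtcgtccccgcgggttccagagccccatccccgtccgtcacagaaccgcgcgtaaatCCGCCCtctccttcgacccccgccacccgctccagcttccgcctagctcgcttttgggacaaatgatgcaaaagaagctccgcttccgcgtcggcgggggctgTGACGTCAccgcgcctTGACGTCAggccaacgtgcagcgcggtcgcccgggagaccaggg

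The windows that members touched, 44 in 40 genes, were rich in G and C. Their median GC content was 60% with 18 CpG dinucleotides, against 50.3% and 5 in the 4228 promoter windows that lie in deep sequence. Both strands were searched for the motifs, and overlap between motifs was not excluded. The GC box was in 23 of the 44 windows (52.3%), against 21.9% of the windows in deep sequence and 35.6% of 32817 windows in all. The ETS site was in 11 windows (25%), against 3.55% and 8.86%. The cyclic AMP response element was in 3 windows (6.82%), against 0.922% and 1.79%, and Lekr1 held 2 copies. The CCAAT box (CCAAT or ATTGG) was in 11 windows (25%), against 33.8% and 37.4%. The AP-1 site TGAGTCA or TGACTCA was in 6 windows (13.6%), against 6.17% and 5.20%, and the E-box CACGTG was in 5 (11.4%), against 4.87% and 7.15%. These are counts of letters in the windows and not of bound factors, and windows that overlap share letters. The comparison windows were taken whether or not they held a peak. Windows touched by deep regions with WT peaks were not counted apart, so these shares are not shown to be particular to members.

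The 4 best-ranked members at internal starts rested on between 7 and 17 summit fragments in each knockout library. The member in Zfp458, a zinc finger gene (chr13:67268596-67269509), had 8, 9 and 11 fragments in KO replicates 1 to 3 and a fold over background (the authors' own value, as are all folds here) of 4.95, 6.02 and 6.12. Cd46 encodes a regulator of complement. Its member (chr1:195091626-195092667) had 9, 7 and 11 fragments and a fold of 4.85, 5.33 and 5.45. Wiz encodes a zinc finger partner of the H3K9 methyltransferases G9a and GLP. Its member (chr17:32363763-32364847) had 14, 10 and 14 fragments, and the 3 summits lay at -32, -33 and -38 bp relative to the annotated start, within 6 bp of each other. Adh5 encodes the dehydrogenase that clears formaldehyde, and its member (chr3:138442207-138443600) had 17, 7 and 11 fragments and a fold of 7.14, 4.71 and 4.88. Its summits lay at -194, -556 and -537 bp, against 49, -17 and 201 bp in Zfp458 and 195, -107 and 209 bp in Cd46. The nearest WT peak lay 36612 bp from the Zfp458 member, 23760 bp from Cd46, 5309 bp from Wiz and 28191 bp from Adh5.

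Several further genes with a member at an internal start code for regulators known in blood cells, and these were picked after their values were seen. Stat5b, a transcription factor that relays cytokine signals, held the second widest member (1909 bp, chr11:100848830-100850738), with 14, 8 and 14 fragments. Its summits lay 345, 563 and 1540 bp from the annotated start. Its nearest WT peak was 477 bp away. Nr4a1, an orphan nuclear receptor of the immediate early response, had 6, 7 and 11 fragments and a fold of 3.37, 4.21 and 4.05. Hif1a, the oxygen-regulated subunit of the hypoxia factor, had 7, 5 and 8 fragments, with a WT peak 337 bp away. Summits lay at -36, -387 and -803 bp relative to the start in Nr4a1 and at 329, 792 and 412 bp in Hif1a. Sgk1, a kinase activated downstream of PI3K, had 9, 6 and 6 fragments, and its nearest WT peak was 79308 bp away. Ccnd3, a cyclin of the G1 phase, had 10, 7 and 13 fragments at its internal start but ranked in the weakest part of the lists, at 86.1%, 95.7% and 66.4%. On chromosome 13, 4 neighbouring zinc finger genes, namely Zfp708, Zfp759, Zfp458 and Zfp595, each had a member at an internal start between positions 67080977 and 67333098. Their folds lay between 3.57 and 6.14, and the nearest WT peak was at least 19164 bp away from each. Over the genome, 14 members (1.64%) had a host named Zfp, Zkscan, Zscan or Zbtb, as are 2.79% of the genes with deep sequence. The first is a share of members and the other a share of genes, so they do not compare directly.

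Over the 33 members at a start of their own host, the best peak's summit lay a median of 121, 197 and 151 bp from that start in KO replicates 1 to 3. It was within 250 bp in 22, 20 and 21 of them. The host genes' outer ends were marked in 12, 9 and 10 of the 33 genes in KO libraries, against 7, 7 and 6 in WT libraries. Over all 726 host genes the share marked was higher in every library. It was 60.1%, 52.1% and 58.7% in KO libraries and 31.4%, 38.2% and 33.2% in WT libraries. Members that touched a window ranked higher in the lists than the other 814, with median ranks of 24.6%, 43.8% and 40.3% against 38.4%, 49.4% and 52.0%. Of those that touched one, 18 were among the best-ranked 213 members, 2 in the next 213, 10 in the next and 8 in the last. Leaving all 38 out keeps 814 members.

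**Figure D1:**
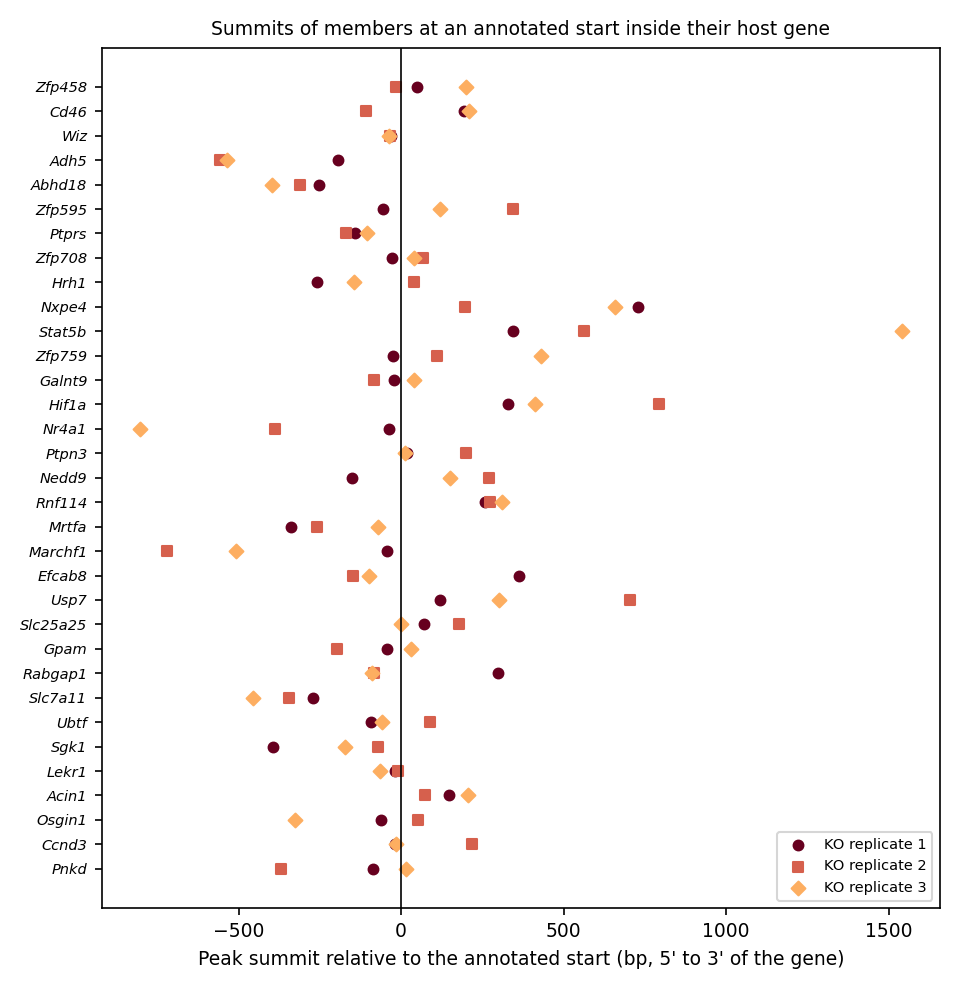
Summit of the best peak in each knockout list (points, 1 colour and shape per library) relative to the annotated start in the host gene (x axis, bp), for the 33 members at a start of their own host (y axis, best-ranked first). Most summits lie within 250 bp of the start, and those of Wiz, Lekr1 and Zfp708 lie close together.

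The remaining 11 of the 15 best-ranked members touched no promoter window. The first in rank was in Ahi1, a gene of ciliary signalling (chr10:21066616-21067700), with 18, 14 and 22 fragments and a fold of 3.83, 4.10 and 4.08 in KO replicates 1 to 3. The second was in Tle3, a Groucho corepressor (chr9:61385726-61386720), with 11, 9 and 16 fragments and a fold of 4.65, 4.76 and 5.48. The others were in Prdm2, Uggt2, Hhat, Iqgap1, Acsf3, Fam163a, Wwox, Oxr1 and Foxp1. Prdm2 encodes a histone H3K9 methyltransferase, and its member (chr4:143161468-143162284) had 10, 10 and 17 fragments. Hhat, which attaches palmitate to Hedgehog proteins, had 17, 8 and 14 fragments, with all 3 summits within 12 bp (chr1:192745143-192745893). Iqgap1 encodes a scaffold of the actin cytoskeleton, and its member (chr7:80753389-80754555) had 13, 9 and 14 fragments. Foxp1, a forkhead factor needed for B cell development, had the most fragments of the 15, with 20, 16 and 25 (chr6:99264095-99265029), and its nearest WT peak was 395 bp away. Each of the 15 had a q-value of 0.05 or lower in all 3 KO lists. All 15 were also found when every list was shortened to its strongest 21917 peaks. This outcome was fixed by their choice, since none ranked weaker than 24.7% in any KO list, and it is no separate support.

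Most members were weaker than these. The median member was 753.5 bp wide, with a range of 227 to 1964 bp, and its best peak had 8, 6 and 8 summit fragments in KO replicates 1 to 3. The median fold was 3.50, 3.53 and 3.54. In KO replicate 2, 171 members (20.1%) rested on at most 4 fragments, against 51 (5.99%) in replicate 1 and 7 (0.822%) in replicate 3. The q-value was 0.05 or lower in all 3 KO lists for 213 members, in 2 lists for 327, in 1 list for 251 and in none for 61. The lowest-ranked members were in Upf1, the helicase of nonsense-mediated decay, Elmod3 and Napepld, each with between 3 and 7 fragments per library. The widest were in Tacc1 (1964 bp), a centrosome and microtubule protein, Stat5b, and Tnip1 (1637 bp), a partner of the NF-kB inhibitor A20.

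The 3 knockout lists placed their peaks at similar but not identical positions. The best peaks of the 3 libraries shared at least 1 bp in 632 members (74.2%), and all 3 summits fell within 200 bp of each other in 232 (27.2%). In deep regions with a peak in all 6 lists these shares were 85.4% and 26.0%. Each KO list had exactly 1 peak in 682 of the members.

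Members were lower in the knockout lists than knockout-only regions elsewhere. Ranks run from 0% for the peak with the highest −log10 p-value to 100%. The median rank of members was 37.9%, 49.3% and 51.5% in KO replicates 1 to 3. It was 27.1%, 41.4% and 36.9% for the 1271 knockout-only regions within 5 kb of a gene end, and 34.0%, 46.6% and 44.7% for the 700 between genes. The difference from gene ends was 11.0 ± 3.37 percentage points (SD, n = 3), in the same direction in 3 of 3 libraries. The difference from regions between genes was 4.48 ± 2.12 points, also in 3 of 3 libraries. The same KO peaks chose the members, so these differences are given as a description with no p-value. Median best-peak widths were 410.5, 323 and 420 bp in members, against 510, 380 and 525 bp at gene ends and 454, 348 and 418.5 bp between genes. A q-value of 0.05 or lower in every KO list was reached by 25% of members, 44.1% of regions at gene ends and 30.9% of those between genes.

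**Figure D2:**
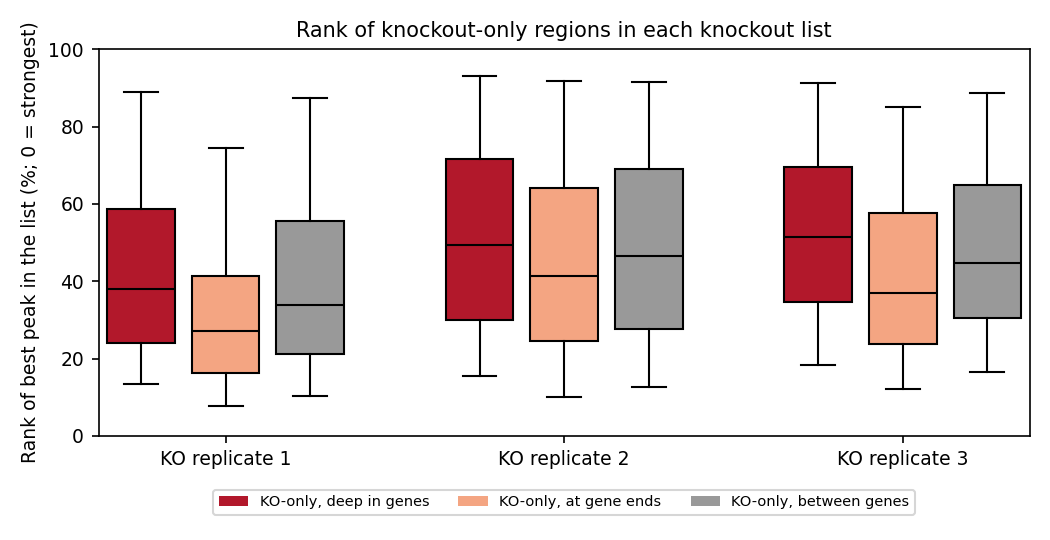
Rank of the best peak of each knockout-only region in the 3 knockout lists (y axis, percent of the list, 0 is the strongest), for members and for knockout-only regions at gene ends and between genes; boxes show quartiles and median, whiskers the 5th and 95th percentiles. In every library the members' median (37.9%, 49.3% and 51.5%) is the weakest of the 3 classes.

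Among regions with a peak in all 3 KO lists, 852 of 3700 deep regions (23.0%) had no WT peak, against 15.02% of 8462 regions at gene ends and 24.9% of 2814 between genes. A further 945 deep regions with 3 KO peaks had 1 WT peak and 887 had 2. The share without a WT peak followed the rank in the knockout lists. Regions with 3 KO peaks were put in 5 equal groups by mean rank. From the strongest group to the weakest the share of deep regions without a WT peak was 0%, 2.85%, 11.3%, 25.9% and 41.5%, against 0.783%, 5.80%, 17.8%, 30.4% and 42.6% at gene ends. Within each group the deep share was the lower of the 2, although it was the higher over all ranks together. These shares use the values that chose the members and carry no test. A WT peak lay within 1 kb of 210 members (24.6%) and within 5 kb of 405, and the median distance to one was 5411 bp.

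**Figure D3:**
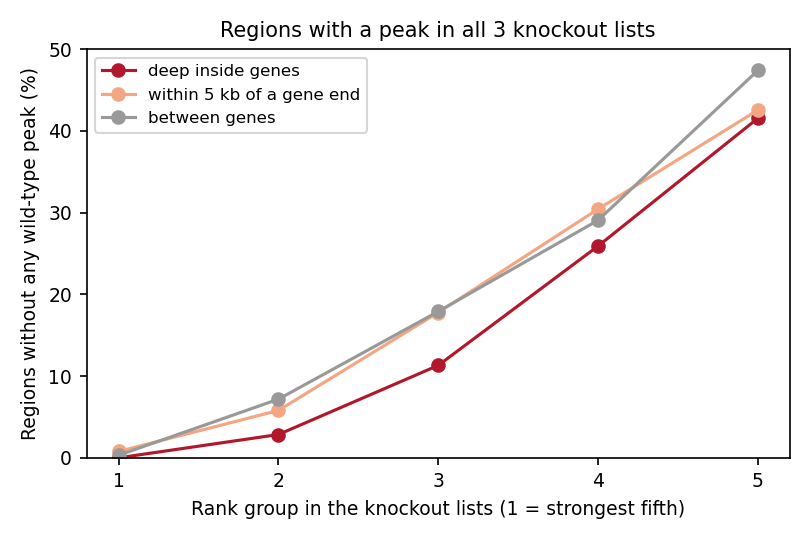
Share of regions without any wild-type peak (y axis, percent) among regions with a peak in all 3 knockout lists, by 5 groups of mean knockout rank (x axis, 1 is the strongest), for 3 places. Deep regions run from 0% to 41.5% and lie below gene ends in all 5 groups.

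Near the distance limit, the members closest to a gene end were in Adh5 (5007 bp), Diaph1 (5057 bp) and Sgk1 (5069 bp), with folds of 7.14, 4.71 and 4.88, of 4.13, 3.33 and 2.92, and of 3.94, 3.76 and 2.87 in KO replicates 1 to 3. The knockout-only regions just short of it were in Herc1 (4988 bp), Nenf (4889 bp) and Cacna1b (4888 bp), with folds of 3.36, 3.21 and 3.92, of 5.24, 4.60 and 5.60, and of 3.93, 3.90 and 3.85. Values on both sides of the limit overlapped.

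Deep peaks in general, with the members' own peaks left out, were more numerous in the knockout lists. They numbered 19027, 11535 and 12185 in KO replicates 1 to 3, against 7140, 10039 and 7054 in WT replicates 1 to 3, so the groups did not overlap. As a share of its list this was 38.5%, 34.9% and 35.2% in KO, against 32.5%, 33.7% and 32.3% in WT. The mean share was 36.2 ± 1.99% in KO and 32.8 ± 0.722% in WT (SD, n = 3 each; two-sided exact permutation p = 0.1, adjusted p = 0.114 over 8 comparisons). The smallest p that 3 against 3 libraries allow is 0.1. This share moved with list length: when each list was shortened to 21917 peaks and its own knockout-only regions were left out, it was 28.7 ± 0.601% in KO and 32.2 ± 0.276% in WT, the opposite direction (exact permutation p = 0.1, adjusted p = 0.114). Among peaks whose q-value was 0.05 or lower, treated the same way, it was 26.3%, 21.3% and 27.2% in KO, against 20.2%, 21.7% and 20.4% in WT, and the groups overlapped (exact permutation p = 0.2). Leaving out knockout-only regions lowered KO shares alone, since no WT list holds any, and this widened the gap at equal length. The permutation did not repeat that step, so the p-values of these shares are only descriptive. With lists of equal length the rule finds 305 knockout-only deep regions, and 257 of the 852 members (30.2%) overlap one. Of the 213 members with a q-value of 0.05 or lower in every KO list, 196 do.

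**Figure D4:**
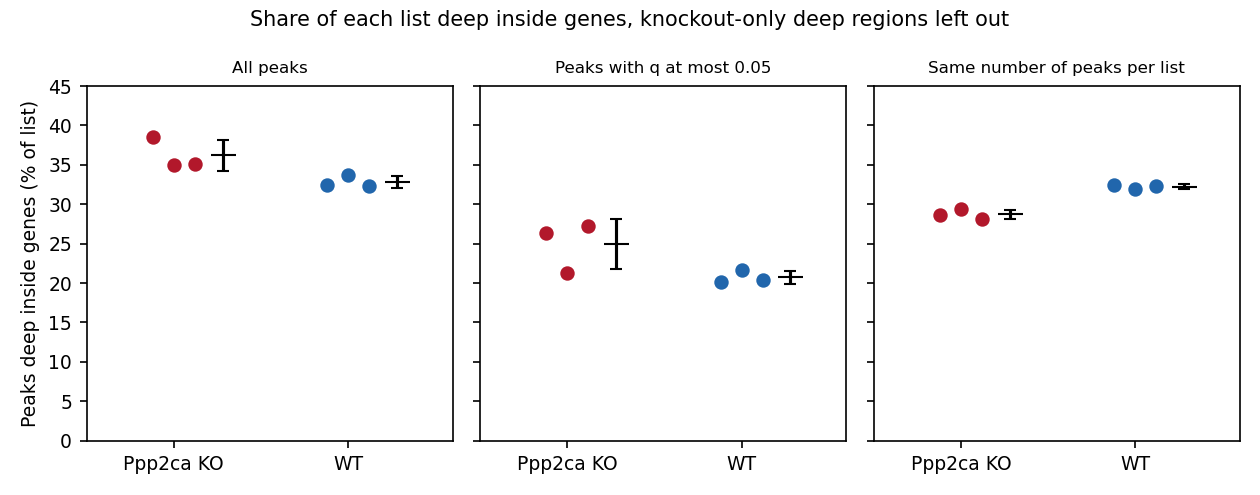
Share of each peak list that lies deep inside genes (y axis, percent), with knockout-only deep regions left out, for all peaks, for peaks whose q-value was 0.05 or lower, and with 21917 peaks kept per list; points are libraries, bars the mean ± SD (n = 3). The KO points lie above WT for all peaks, overlap WT at the q-value limit, and lie below WT at equal length.

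The 852 members lay in 726 host genes, 5.29% of the 13734 genes that hold deep sequence; 619 hosts held 1 member, 92 held 2, 10 held 3 and 5 held 4. Hosts were long, with a median of 99664.5 bp against 31927.5 bp for the other 13008 genes with deep sequence. Per 100 Mb of deep sequence there were 99.9 members over all genes. The density was 149 in genes of up to 20 kb, 144 from 20 to 50 kb and from 50 to 100 kb, 134 from 100 to 200 kb, 89.6 from 200 to 400 kb and 28.5 above 400 kb. On chromosome X it was 13.1 (5 members), against 72.3 to 141 on the autosomes; deep regions with a peak in all 6 lists were also sparse on X, at 18.3 against 91.7 to 206. For the 679 members whose host strand is known, the host was cut into 3 equal parts, and 32.1% lay in the 5′ part, 39.5% in the middle and 28.4% in the 3′ part. For deep regions marked in all 6 lists these shares were 36.0%, 40.5% and 23.5%, and over every deep region they were 31.2%, 40.3% and 28.6%, close to those of the members. A lncRNA gene overlapped 55 members, and 1 member, in Fndc3b, overlapped a miRNA gene, Mir3092.

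The genes with 4 members were Oxr1, Lpp, Jazf1, Fry and Gse1. Over all 852 members, most of them alone in their gene, 35 (4.11%) lay within 10 kb of another. For knockout-only regions this share was 5.98% at gene ends and 7% between genes. Oxr1, which protects cells from oxidative damage, had neighbouring members 13364 to 57043 bp apart. By rank in its weakest list the first of them (chr15:41693145-41694243) had 8, 8 and 11 fragments, and 2 of its 4 members had a q-value of 0.05 or lower in every KO list. Lpp encodes an adhesion protein of the zyxin family. Its neighbouring members lay 25319 to 284696 bp apart, and 1 of 4 reached that q-value in 3 lists. In Jazf1 and in Fry it was also 1 of 4. In Gse1, whose product associates with CoREST-type corepressors, it was 0 of 4. Of the genes with 3 members, Foxp1, Pdzd2 and Ppm1h ranked best, and Ppm1h encodes a metal-dependent phosphatase outside the PP2A family.

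At their ends, which the rule did not use, the host genes were marked more often in the knockout lists. A gene end counted as marked when a peak lay within 1 kb of it. Among the 726 hosts, 436, 378 and 426 were marked in KO replicates 1 to 3, against 228, 277 and 241 in WT replicates 1 to 3. The groups did not overlap, and the mean was 56.9 ± 4.27% in KO and 34.3 ± 3.50% in WT (SD, n = 3 each). The other 13008 genes gave 47.5 ± 2.76% in KO and 30.8 ± 2.17% in WT. Hosts thus exceeded the other genes by 9.90, 7.41 and 10.9 points in KO libraries, against 1.95, 4.84 and 3.54 points in WT libraries, without overlap. The hosts were chosen by peaks of these same 6 libraries, so the values at their ends are given as a description. Tests of host values were run and count among the 8 comparisons of the deep share, but their p-values are not read as support. Hosts are longer than the other genes, and the part of length in this excess was not tested. Of the hosts, 48 (6.61%) had an end marked in 3 KO and no WT list, against 4.81% of all genes with deep sequence. The reverse was found in 0 hosts, against 0.0146% of those genes. In 135 hosts an end was marked in all 6 lists, and in 221 in none.

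Elsewhere in their deep sequence the hosts were not free of the mark in the wild type. Outside the members they held 3903, 2528 and 2759 deep peaks in KO libraries, against 1527, 2046 and 1464 in WT libraries, a ratio of 1.82 for the means. The other 13008 genes gave a ratio of 1.75. With lists of equal length the ratio in hosts was 0.993. At least 1 WT library had another deep peak in 623 of the hosts (85.8%), and all 3 did in 375. No such share is given for the other genes, which are shorter, so it is not shown to be particular to hosts.

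By function, the members were described with 20 gene lists, which were chosen with earlier results of these data known, and no list was tested. The 99.9 members per 100 Mb over all genes include genes above 400 kb, at 28.5. Genes in the length classes up to 200 kb had 134 to 149, so a list above 99.9 can still be at or below genes of that length. Of 27 PI3K, AKT and mTOR genes with deep sequence, 10 (37.0%) were hosts, against 5.29% of all genes, and they held 303 members per 100 Mb. These 27 genes are long, with 3.97 Mb of deep sequence together; among all genes of 100 to 200 kb, 14.0% were hosts, with 134 members per 100 Mb. Mtor, the kinase of both mTOR complexes, had 8, 8 and 8 fragments and a fold of 4.13, 5.06 and 4.64 (chr4:148509086-148509770). Rptor, the scaffold of mTOR complex 1, had 6, 5 and 8 fragments (chr11:119671085-119671753). Pdpk1, the kinase that activates AKT, had 8, 8 and 11, with a WT peak 87 bp away. Akt2, Pik3c3, Pik3r5, Sgk3 and the protein kinase C genes Prkcb, Prkce and Prkch were the other hosts.

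Of 44 genes for GTPase exchange factors and activating proteins, 13 were hosts, with 18 members, or 175 per 100 Mb against 99.9 over all genes. Rasgrp1, which loads RAS in lymphocytes, had 8, 7 and 11 fragments and a fold of 3.91, 4.08 and 4.20 (chr2:117299163-117300341). Sipa1l1, a RAP activating protein, had 9, 8 and 14 fragments. Nf1, the RAS activating protein neurofibromin, was also a host. Of 28 MAP kinase and stress kinase genes, 4 were hosts (213 members per 100 Mb): Map2k6, the activator of p38, with 7, 5 and 8 fragments, and Taok3, Map2k1 and Spred2. Of 31 RNA binding and decay genes, 8 were hosts (251 members per 100 Mb). Tnrc6b, a partner of Argonaute in miRNA silencing, had the best ranked of these, with 13, 10 and 22 fragments (chr15:80792504-80793416).

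Of 42 genes of the cytoskeleton and adhesion, 9 were hosts, at 99.6 members per 100 Mb, near the density over all genes. Pxn, the focal adhesion adaptor paxillin, had the best ranked of them, with 15, 9 and 12 fragments and a fold of 4.42, 3.73 and 3.14. Lcp1, the actin bundler of white blood cells, had 13, 13 and 15. Of 32 ubiquitin ligase genes, 6 were hosts, at 124 members per 100 Mb. Wwp2 had 10, 10 and 10 fragments, and Cbl, the ligase that downregulates cytokine receptors and other tyrosine kinase receptors, had 9, 6 and 9. Of 32 interferon, NF-kB and inflammation genes, 2 were hosts, with 3 members (247 per 100 Mb). Stat4, which relays interleukin signals, had 11, 7 and 10 fragments in the better ranked of its members, and Ikbkb, a kinase that activates NF-kB, had 8, 6 and 11.

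Chromatin genes were hosts in 6 of 42 for histone and DNA methylation, at 231 members per 100 Mb, and in 3 of 28 for histone acetylation, at 98.0, close to the 99.9 over all genes. Dot1l, the H3K79 methyltransferase, had 9, 6 and 11 fragments. Chd7, a chromatin remodeller, had 12, 8 and 9, and Asxl2, a polycomb-associated factor, had 7, 7 and 7. Hdac4 and Hdac7, which encode class IIa histone deacetylases, were among the acetylation hosts, neither with a q-value of 0.05 or lower in every KO list. Of 25 genes for PP2A subunits and partners, 2 were hosts (139 members per 100 Mb). Ppp2r3a, a regulatory subunit, had 5, 6 and 6 fragments, and Anp32a, an inhibitor of the phosphatase, had 7, 9 and 11, with a WT peak 42 bp away.

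Over all genes with deep sequence, 5.29% were hosts, with 99.9 members per 100 Mb. Among the blood lists, stem cell transcription factors were hosts in 3 of 27 (Stat5b, Zeb2 and Foxo3), with 73.0 members per 100 Mb. These genes held 15 deep regions marked in all 6 lists. Stem cell and cytokine receptors were hosts in 4 of 27 (Il1r1, Igf1r, Itga4 and Cd44), with 4 members (270 per 100 Mb). Erythroid genes were hosts in 3 of 16: Ank1 and Sptb, which build the red cell membrane skeleton, and Slc25a37, the mitochondrial iron carrier. They held 3 members (432 per 100 Mb). The Ank1 member (chr8:23034589-23035571) had 11, 8 and 15 fragments. Lymphoid genes were hosts in 3 of 15 (327 members per 100 Mb), with 3 members in Foxp1 and others in Bach2 and Satb1. The myeloid list had 1 host of 10, the integrin gene Itgam, with 7, 9 and 12 fragments. Its 1 member gave 417 per 100 Mb. Endothelial and stromal genes were hosts in 4 of 20 (Pecam1, Pdgfrb, Nrp1 and Vcam1), with 4 members (344 per 100 Mb). Mast cell genes were hosts in 0 of 7, and T and NK cell genes in 1 of 19 (Ets1, 88.1 members per 100 Mb). The megakaryocyte list had 1 host of 11 (158 members per 100 Mb), the vesicle transport gene Rab27b, with 6, 5 and 9 fragments. The 32 long neural genes, a comparison set, held 1 member, in Magi2, at 2.37 per 100 Mb.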

How the data were processed

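H3K27ac CUT&RUN was deposited as 1 narrowPeak list per library, 3 KO and 3 WT. Per the submitters' processing notes, the build was GRCm38 and the tools included MACS2, BWA, Trimmomatic, HOMER, deepTools and ChIPseeker; the sources used here give no version, parameter or control library. The deposited ratio is the fold over background at the summit. The summit's −log10 p-value, and likewise its −log10 q-value, are deposited beside it. All 3 depend on library depth and were used only to rank, describe or filter peaks within a list. Replicates were not pooled.

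From these lists, regions were merged, placed against the RefSeq GRCm38.p6 gene table, and sorted by pattern. Summit fragments came from solving fold and Poisson p-value together, which gave whole numbers within a tolerance of 0.002 for 100% of the peaks with −log10 p-value under 15; read totals are not known. The gene table has no strand, and the promoter table supplied it where it could. No exon, intron or UTR was analysed here, and no genome sequence was used, so member sequences beyond promoter windows are not printed. Library values went through a two-sided exact permutation test over 20 assignments, and p-values were adjusted by Benjamini-Hochberg. Values of the host genes were among those tested, although the rule chose the hosts, and their p-values are not read as support. Each p-value gives the share of assignments with a mean difference at least as extreme as the one seen. Differences between these libraries may be partly technical. Same-numbered KO and WT libraries deviated with correlations of 0.0201, 0.0239 and -0.00993, so the numbers were not taken as pairs. No peak was identical between replicates of a group. The gene lists held 584 entries; 581 were found by symbol and 2 by synonym, and 1 was not found.

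Members and lists were chosen with earlier results of these data known. Members named are the 15 best by rank in their weakest KO list, the 3 widest, the 3 lowest, those of the 8 genes with most members, up to 4 hosts per list, and the 3 on each side of the 5 kb limit; others are said to be picked after their values were seen. Some genes the rule selects are not reported here. The scripts were tested on simulated data. Python 3.11.15, pandas 2.3.3, NumPy 2.4.6, SciPy 1.17.1 and matplotlib 3.10.9 were used. Alternatives were q-value limits, equal list lengths, other merging gaps, distances and windows, autosomes alone, leaving out each library, and a replicate block.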

Additional observations from a re-analysis of the deposited data

How the results depend on the processing

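Of 133 alternative values for 32 results, 4 reversed and 9 moved. The other 120 kept their direction or, for counts, stayed within a set ratio of the main count, but not always their size. Some of them could not have changed, as said below for the replicate block. The number of members was 89 at −log10 q-value of at least 5, 305 with the same number of peaks per list, 213 when the q-value had to be 0.05 or lower in every knockout list, and 1008 with that limit in the wild-type lists too. Leaving out 1 library gave 1128 to 1907 members, since a rule over fewer lists is easier to meet: 1418, 1907 and 1550 without KO replicates 1, 2 and 3. With the replicate block, as a knockout and no wild-type peak in at least 2 of 3 numbers, the count was 4366. For the other results the block recomputed only p, so their values could not change. The deep share (KO minus WT) was -3.51 points with the same number of peaks per list and -2.38 points at −log10 q-value of at least 5. At equal length the ratio of deep peaks (KO over WT) was 0.879 and that of other deep peaks in hosts 0.993; those ratios were 5.98 and 5.51 at a q-value of 0.05 or lower and 11.4 and 7.33 at −log10 q-value of at least 5. Without KO replicate 1 the deep share difference was 1.14 points. Summits within 200 bp in place of a shared base pair gave 27.2% of members, but this is a different measure, and neither implies the other. The cause of these changes was not tested. At a distance of 2 kb, 5 stem cell transcription factor members were found in place of 3. Promoter starts in place of gene ends (23.3 points) and leaving out members at promoter windows (814 left) were chosen after seeing the data. No test here can give a p under 0.1, so none could pass 0.05. Peaks of 3 to 9 fragments limit what a missing wild-type peak shows: at this depth the mark was not listed there, which is not its absence.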
